A study of Mus musculus with 30 samples.

Results

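The nuclear genes of the mitochondrial respiratory chain and ATP synthase were followed through 30 retinas of the mouse oxygen-induced retinopathy (OIR) model. The family was defined by symbol: genes whose names begin with Nduf, Uqcr, Cox4, Cox5, Cox6, Cox7, Cox8 or Atp5, with Sdha, Sdhb, Sdhc, Sdhd, Cyc1 and Cycs. A probe set counted where the platform gave it 1 gene symbol, and where a gene had several, the one with the highest mean over the 30 arrays stood for it. This gave 86 genes, from 160 probe sets, among 12393 genes measured. By complex they were 33 subunits of complex I, 5 complex I assembly factors, 4 subunits of complex II, 9 of complex III, cytochrome c, 17 genes of complex IV and 17 of complex V (ATP synthase). The 17 of complex IV include Cox7a2l, which was classed as a factor of joined complexes (supercomplexes) and not as a subunit.

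Complexes I to IV of the inner mitochondrial membrane pass electrons from NADH and succinate to oxygen. Of these, complexes I, III and IV pump protons, and ATP synthase uses the returning protons to make ATP. Photoreceptors pack mitochondria into their inner segments and are among the heaviest oxygen users of the body. Several complex IV subunits exist in a usual form and a second form made in particular tissues or at low oxygen, such as Cox4i2 beside Cox4i1 and the heart and muscle form Cox8b beside Cox8a.

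All 30 samples were total RNA from a single retina of a mouse pup, with 3 retinas in each of 10 groups and 1 retina from each pup. The normoxia group had no oxygen treatment, and the OIR group breathed 75% oxygen from day 7 for 5 days without an injection. The other 8 groups had the same oxygen and an injection into the vitreous, at day 5 (P5) before the oxygen or at day 12 (P12) on return to room air, of saline, 100000 endothelial colony-forming cells (ECFC), 10000 CD34+ cells, or the combination of both (110000 cells). Every retina is labelled as P17, but by the design text P5-injected eyes seem to have been taken at P12, so a comparison of a P5 group with another may also compare ages. No source used here gives the strain, the sex or the origin of the injected cells.

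The arrays gave 1 log2 value per probe set, and within groups Pearson's r between arrays, over probe sets, was 0.964 to 0.997. Rod markers were present throughout, with a mean over 4 genes of 13.56 to 13.87 in the 30 arrays, so the samples read as retina. The 5 lens markers averaged 6.59 to 13.82 in the 12 arrays of P5 injection and 5.54 to 8.37 in the other 18. The spiked-in hybridisation controls averaged 13.23 to 13.65 in the 12 arrays of P12 injection and 11.86 to 12.96 in the other 18. Precision is limited by having 3 arrays in a group, and all of the retina's cell types are mixed, so fewer cells of a type and less RNA per cell cannot be told apart. Differences are on the log2 scale, with their SE. The p-values are those of limma after Benjamini-Hochberg adjustment over all 12393 genes, and a gene was called at an adjusted p under 0.05. Counts at an unadjusted p are given without the share of all genes, as are most counts under alternative settings. Such counts are not read as a result about the family.

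Many respiratory chain promoters are known for sites of nuclear respiratory factor 1 (NRF1), a regulator of mitochondrial genes, and of ETS-family factors. In the RefSeq promoter table of build GRCm38.p6, with 250 bases before and 50 after each start, 71 of the 86 genes were found, with 76 windows. The NRF1 motif, on either strand, was in 17 of these windows (22.4%) and in 4.6% of the 32851 windows of the whole promoter table. That table covers 27025 genes, a wider set than the 12393 measured, and all motif shares below are set against it. The ETS letters CCGGAAG were in 23.7% against 8.86%, and the YY1 letters AAGATGGC in 11.8% against 2.75%. The shares for the core letters of hypoxia response elements were 27.6% against 19.6% for ACGTG and 53.9% against 32.4% for GCGTG, and for the GC box GGGCGG 43.4% against 35.7%. Both strands were searched, and motifs can share letters: GCGTG, read on the other strand, can lie inside an NRF1 match, as in Sdhd. A match is a string of letters in a window, not a measured site. The 5 stretches upstream of the start shown belong to genes that were called in the comparisons of saline with OIR and whose windows hold NRF1 letters, marked by capitals. All lie on the minus strand and read 5′ to 3′. They are chr5:115349034-115349133 for Cox6a1, chr5:108434400-108434499 for Atp5k, chr6:24527691-24527790 for Ndufa5, chr9:50603870-50603969 for Sdhd and chr13:74350241-74350350 for Sdha.
Cox6a1: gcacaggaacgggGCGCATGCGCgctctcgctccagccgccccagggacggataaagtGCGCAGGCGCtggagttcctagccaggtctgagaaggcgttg
Atp5k: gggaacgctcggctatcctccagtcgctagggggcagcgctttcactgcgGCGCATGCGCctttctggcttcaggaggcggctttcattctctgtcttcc
Ndufa5: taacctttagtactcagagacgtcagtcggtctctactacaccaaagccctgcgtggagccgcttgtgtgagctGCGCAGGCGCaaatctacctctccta
Sdhd: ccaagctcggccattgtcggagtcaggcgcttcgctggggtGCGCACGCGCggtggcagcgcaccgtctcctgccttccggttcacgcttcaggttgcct
Sdha: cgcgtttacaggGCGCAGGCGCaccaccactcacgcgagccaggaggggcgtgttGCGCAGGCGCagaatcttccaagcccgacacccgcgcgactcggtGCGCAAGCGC
The stretch of Cox6a1 held 2 matches and that of Sdha 3, and the others held 1 each. Windows of genes higher after P5 saline held the NRF1 letters in 5 of 15, and those of genes lower after P12 saline in 3 of 16. The 15 windows belong to 14 genes. Ndufa5 has 2 overlapping windows that hold the same match, so that match is counted in both, here and in the 17 of 76.

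Over the 10 groups the family moved over a narrow range. The median gene spanned 0.41 log2 units between its highest and lowest group mean, against 0.60 for all genes, and 31 of the 86 (36%) spanned more than 0.5, against 64% of all genes. The set of all genes was not matched to the family for brightness, so the narrower range is not read as particular to the family. In replicate 1 of normoxia, for instance, the median was 11.90 over the family and 8.65 over all genes. The limma F test for any difference among groups called 59 of the 86 (68.6%), beside 62.3% of all genes, so the share called was near that of the array. The called genes were 26 of 33 complex I subunits, 4 of 4 in complex II, 7 of 9 in complex III, 10 of 17 in complex IV, 11 of 17 in complex V, 1 of 5 complex I assembly factors and not Cycs, the electron carrier cytochrome c. Only Cox8b (3.44) and Uqcr11 (1.03), a small complex III subunit, spanned more than 1 log2 unit. The highest of the 10 group means was that of P5 saline for 28 genes and of P5 CD34+ cells for 16, and the lowest was that of P12 saline for 19 and of P12 ECFC for 19. The same counts over all genes are not given, so these are not read as a result about the family.

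**Figure D1:**
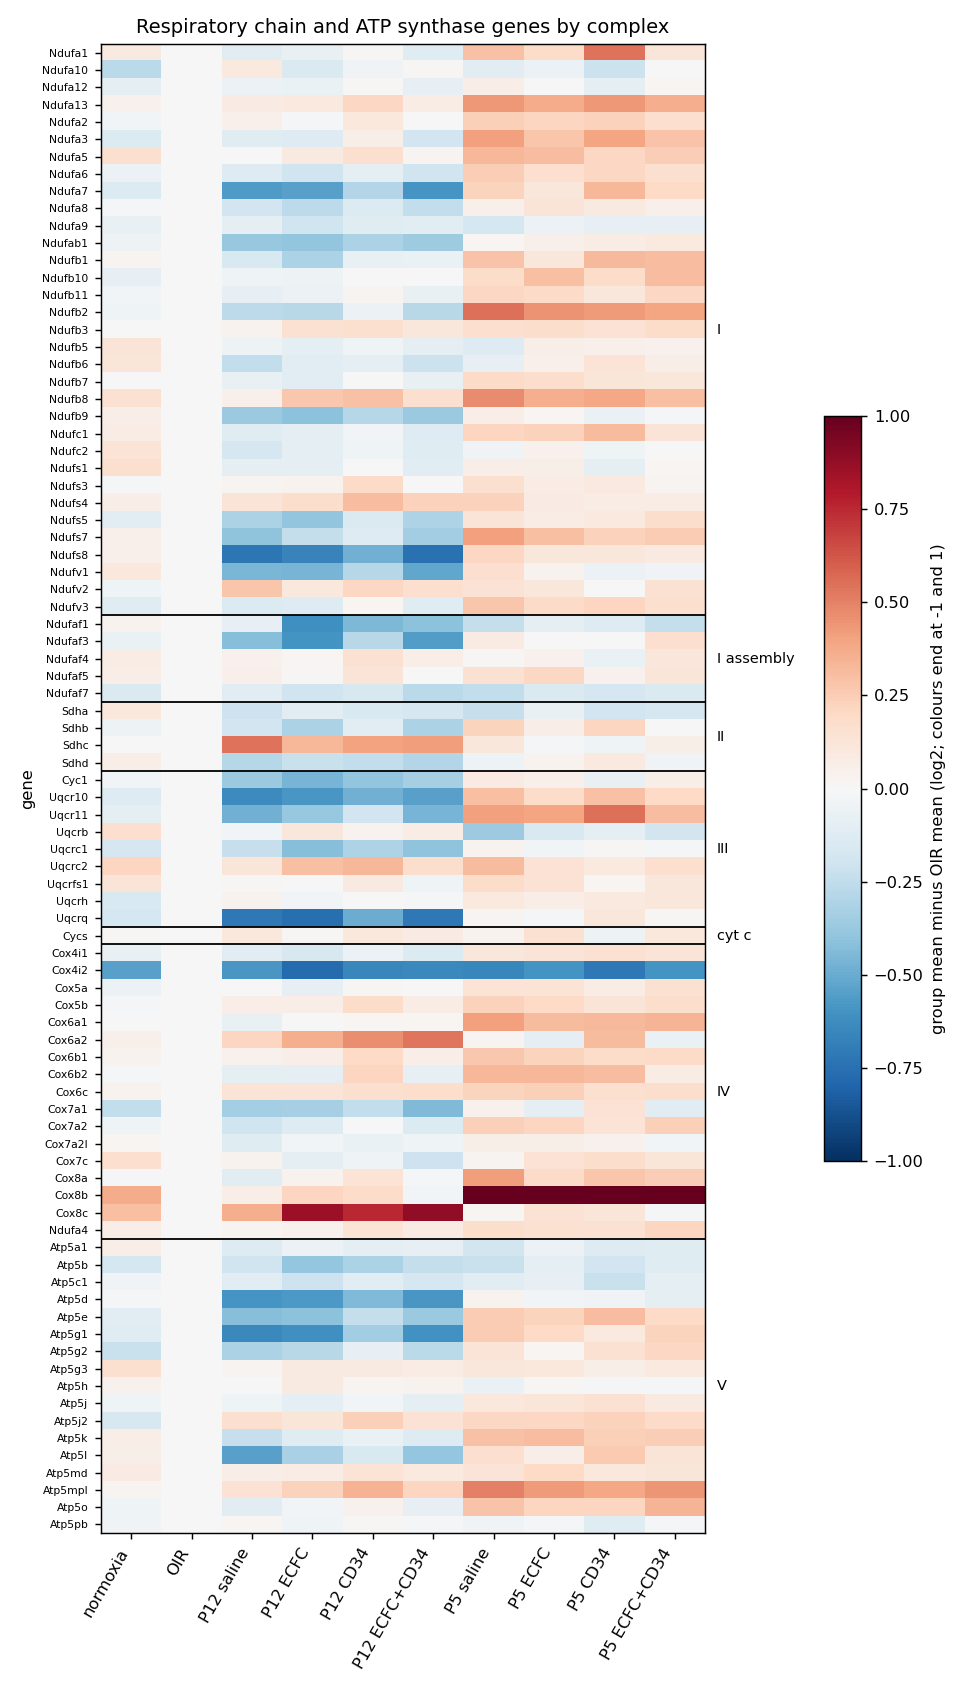
Group mean minus the OIR mean (log2) for the 86 genes, ordered by complex; columns are the 10 groups and colours end at -1 and 1. Columns of P5 injection are mostly red and columns of P12 injection mostly blue or pale in complexes I, III and V, and the normoxia column is mostly pale apart from Cox4i2, which is blue in all 9 columns beside OIR.

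The comparison of untreated OIR with normoxia asks what the model itself did to these genes. Cox4i2, the complex IV subunit form known for its induction at low oxygen, was the single gene called. It read 9.41, 9.64 and 9.42 in normoxia and 10.09, 10.05 and 9.97 in OIR. The 3 OIR arrays lay above the 3 normoxia arrays, a rise of 0.54 ± 0.12 (1.46-fold, adjusted p = 0.0087). The 27 arrays of the other groups reached at most 9.66, so OIR stood above all of them.

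No other gene of the family passed in either direction, beside 3.59% of all genes called higher and 0.968% lower. Their differences ran from -0.37 (Cox8b) to 0.27, and the median over the family was 0.01, against -0.02 for all genes. Without adjustment 5 of the 86 had p under 0.05, a count given without the share of all genes. The next smallest p belonged to Atp5g3, a copy of the membrane c-ring subunit, at -0.16 ± 0.07 (adjusted p = 0.17), and Uqcrh, the hinge protein of complex III, at 0.15 ± 0.07 (adjusted p = 0.21).

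Cox4i1, the usual form of the same subunit, read 12.39, 12.53 and 12.21 in normoxia and 12.48, 12.48 and 12.40 in OIR, which overlap (0.07 ± 0.08, adjusted p = 0.66). The differences of one subunit each in complexes I, III, IV and V were -0.16 for Ndufs1, 0.17 for Uqcrc1, 0.06 for Cox5a and 0.17 for Atp5b, with adjusted p of 0.35 to 0.71. The 4 complex II subunits, which also serve the citric acid cycle, lay between -0.11 (Sdha) and 0.05 (Sdhb), and the carriers Cyc1 (cytochrome c1) and Cycs read 0.03 and -0.01. None of these passed. Among the other paired forms, the usual and the tissue form read 0.01 and -0.05 (Cox6a1, Cox6a2), 0.04 and 0.24 (Cox7a2, Cox7a1), 0.02 and -0.37 (Cox8a, Cox8b) and -0.03 and 0.01 (Cox6b1, Cox6b2), none of which passed. The call for Cox4i2 held in 17 of 17 alternative settings, with differences of 0.46 to 0.62.

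Other lists on the same arrays show what moved beside it. Of 25 measured targets of hypoxia-inducible factor and glycolytic enzymes, 12 were called higher and 0 lower, with a median of 0.42. Adm rose by 3.16 ± 0.39 (adjusted p = 1.7e-05), Vegfa by 1.26 ± 0.18 (adjusted p = 6.4e-05) and Bnip3, a mitophagy receptor, by 0.71 ± 0.13 (adjusted p = 0.0018). Among 17 citric acid cycle and pyruvate dehydrogenase genes and 28 assembly factors outside the family, 0 were called, with smallest adjusted p of 0.24 and 0.097, and 1 gene of each had p under 0.05 without adjustment. All 3 pericyte markers were called higher in OIR: Rgs5 (0.80), Pdgfrb (0.70) and Cspg4 (1.35). The mean of these 3 was 9.31 to 9.37 in normoxia and 10.24 to 10.33 in OIR. Of the endothelial markers 2 of 3 were also called higher, and of the microglial markers 1 of 3. The part of these cells in the Cox4i2 difference was not tested. Of 18 genes of mitochondrial import and transport, 1 was called higher, the prohibitin gene Phb2 (0.31 ± 0.08, adjusted p = 0.026), and of 16 genes of mitochondrial transcription and biogenesis 0 were called, with 2 at an unadjusted p under 0.05.

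**Figure D2:**
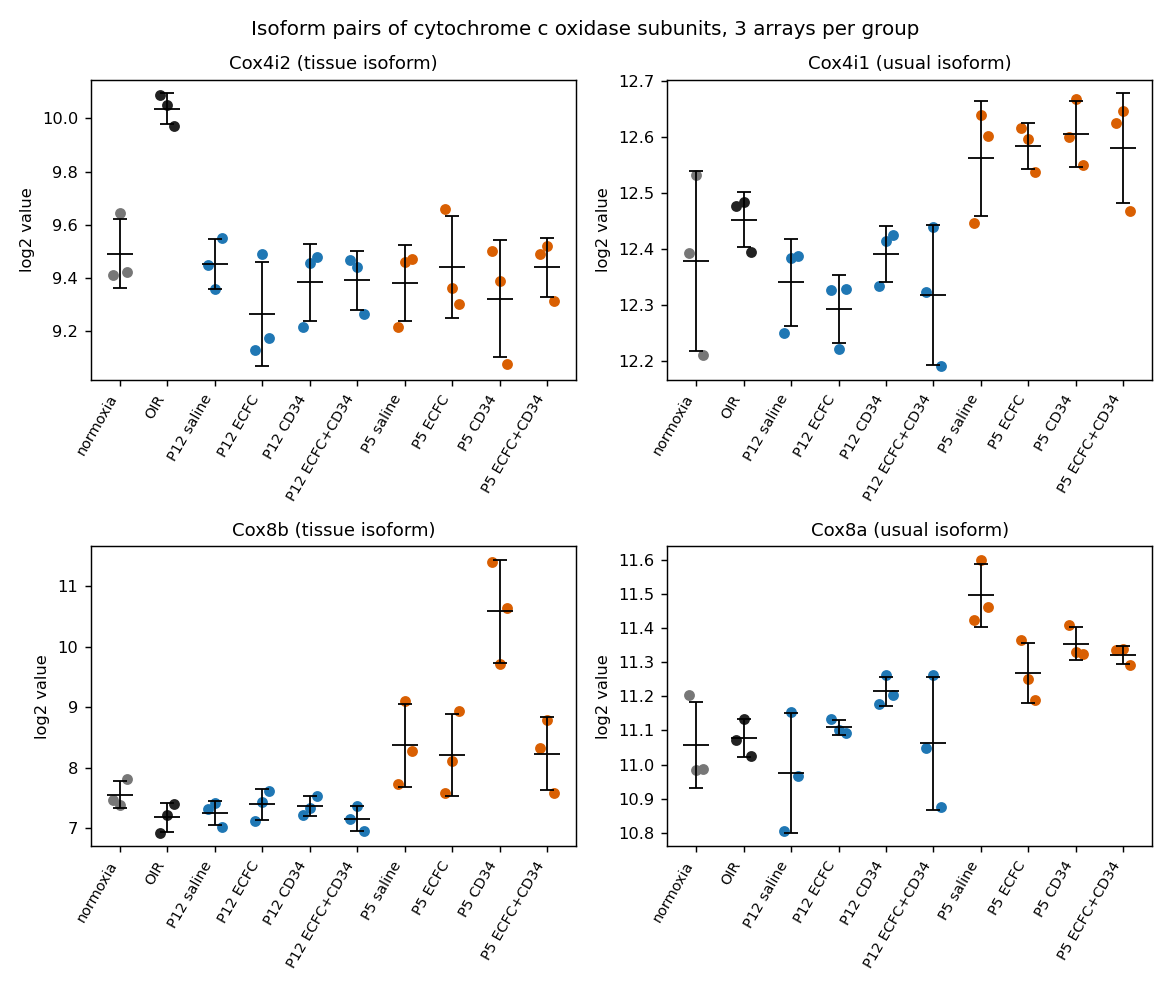
Log2 value of 4 complex IV subunit forms in every array (points), with the group mean and SD (bars, 3 arrays per group). Cox4i2 is high in the 3 OIR arrays alone, Cox8b is high in the 3 arrays of P5 CD34+ cells, and the usual forms Cox4i1 and Cox8a move over much narrower ranges.

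The comparison of P12 saline with OIR asks what an injection at P12 did without cells. Of the 86 genes 18 fell and 2 rose. The falls came in complex I (6 of 33), complex II (2 of 4), complex III (4 of 9) and complex V (5 of 17), with Cox4i2 alone in complex IV. The share called lower was 20.9%, beside 15.4% of all genes, and the share called higher was 2.33%, beside 5.95%. In total 23.3% of the family was called, beside 21.3% of all genes, which is near the background. The median over the family was -0.10, against -0.03 for all genes.

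Of the genes that fell, 4 passed in 17 of 17 alternative settings. Atp5d, a stalk subunit of the ATP synthase head, read 12.38, 12.46 and 12.38 in OIR and 11.76, 11.94 and 11.76 after P12 saline. The groups did not overlap (-0.59 ± 0.09, adjusted p = 5.1e-05). Ndufs8, an iron-sulfur subunit on the electron path of complex I, read 11.64, 11.68 and 11.59 in OIR and 10.78, 11.08 and 10.89 after P12 saline (-0.72 ± 0.12, adjusted p = 0.00018). Every P12 saline array lay below every OIR array. Uqcr10, a small complex III subunit, read 11.93, 12.09 and 11.96 against 11.20, 11.47 and 11.39 (-0.64 ± 0.10, adjusted p = 0.00011). Ndufa7, an accessory subunit of complex I, read 11.31, 11.44 and 11.37 against 10.63, 10.96 and 10.82 (-0.57 ± 0.10, adjusted p = 0.00032). These arrays too were apart, by at least the spread within either group.

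Other large falls were those of the complex III subunit Uqcrq (-0.72 ± 0.14), the c-ring gene Atp5g1 (-0.64 ± 0.16), Cox4i2 (-0.58 ± 0.12) and Atp5l (-0.55 ± 0.10), a membrane subunit of ATP synthase. Cox4i2 read 9.45, 9.36 and 9.55 after P12 saline, which overlaps normoxia. Beside it the pericyte markers averaged 9.91 to 10.13 after P12 saline and 10.24 to 10.33 in OIR, and 1 of 3 was called lower (Cspg4, -0.90 ± 0.18, adjusted p = 0.0011). Of the 3 endothelial markers 1 was called higher (Pecam1, 0.53 ± 0.17, adjusted p = 0.03) and 0 lower. The part of these cells in the Cox4i2 difference after saline was not tested. Cyc1 fell by 0.37 ± 0.09 (adjusted p = 0.0056) while Cycs read 0.10 ± 0.09 (adjusted p = 0.44). The catalytic or structural subunits Ndufs1 (-0.09), Uqcrc1 (-0.23), Cox5a (0.00) and Atp5b (-0.20) did not pass.

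Complex IV was otherwise without calls, with a median of -0.004 over its 17 genes. The usual forms Cox4i1, Cox6a1, Cox7a2, Cox8a and Cox6b1 read -0.11, -0.08, -0.20, -0.10 and 0.05, and the tissue forms Cox6a2, Cox7a1, Cox8b and Cox6b2 read 0.21, -0.34, 0.07 and -0.10.

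Within complex II the subunits went separate ways. Sdhc, a membrane anchor, read 10.52, 10.46 and 10.14 in OIR and 10.98, 10.93 and 10.84 after P12 saline, a rise of 0.55 ± 0.10 (adjusted p = 0.00048). The other anchor, Sdhd, fell by 0.29 ± 0.07 (adjusted p = 0.0042) and the catalytic Sdha by 0.20 ± 0.07 (adjusted p = 0.048), while the iron-sulfur subunit Sdhb read -0.19 ± 0.09 (adjusted p = 0.15). A second probe set of Sdhc read -0.0024. The other gene called higher, Ndufv2 of complex I (0.28 ± 0.08, adjusted p = 0.014), had 2 further probe sets at -0.36 and -0.29, so neither rise was shared by all probe sets of its gene. For the 13 called genes with other probe sets, 20 of 24 such sets had the sign of the one kept, and 16 of those passed.

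The split of calls moved with the scaling. After centring each array on its median, which shifted the median of all genes by 0.11, 15 genes were called lower and 9 higher. With the mean of the hybridisation controls as covariate 7 were lower and 3 higher, and the family median was 0.0054. The calls over all genes under these settings are not given beside these counts. The controls were higher in all 12 arrays of P12 injection than in the other 18, so their level and the P12 injection cannot be told apart. Of the 28 assembly factors outside the family 11 were also called lower and 0 higher, among them Coa5 (-0.54 ± 0.12), Cox19 (-0.37 ± 0.09) and Foxred1 (-0.44 ± 0.10). In the list of 16 mitochondrial transcription and biogenesis genes 4 were lower, including the NRF1 gene itself (Nrf1, -1.04 ± 0.16, adjusted p = 6.2e-05) and the nuclear receptor gene Esrra (-0.60 ± 0.11), and 1 was higher (Tfb2m, 0.53 ± 0.11). Of the citric acid cycle genes 1 was higher, Idh3a (0.35 ± 0.08), and 0 lower. The hypoxia and glycolysis list had 3 higher and 2 lower, and the import and transport list 1 of each (Slc25a13, 0.54, and Tomm40, -0.55).

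The comparison of P5 saline with the same OIR arrays gave the opposite balance: 16 genes rose and 3 fell, where 8.69% of all genes were called. The rises took in 8 of 33 complex I subunits, 5 of 17 in complex IV and 3 of 17 in complex V, and none in complexes II and III. The share called higher was 18.6%, beside 3.81% of all genes, and the share called lower was 3.49%, beside 4.88%. In the family 70 differences were positive and 16 negative, with a median of 0.15 against 0.02 for all genes. These signs are given without the share of positive differences among all genes and are not read as a result.

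Ndufb8, an accessory subunit of the complex I membrane arm, read 11.92, 11.91 and 11.78 in OIR and 12.39, 12.36 and 12.28 after P5 saline. The groups lay apart (0.47 ± 0.08, 1.39-fold, adjusted p = 0.00071). Atp5mpl, a small membrane subunit of ATP synthase, read 12.36, 12.48 and 12.47 against 12.92, 12.97 and 12.94 (0.51 ± 0.09, adjusted p = 0.00094). Ndufa13 of complex I, also known as GRIM-19, rose by 0.43 ± 0.08 (adjusted p = 0.0022). Ndufb2 rose by 0.55 ± 0.16 (adjusted p = 0.03) and Ndufs7, an iron-sulfur subunit that hands electrons to ubiquinone, by 0.41 ± 0.10 (adjusted p = 0.01). All 16 genes that rose had their 3 P5 saline arrays above the 3 OIR arrays. They were chosen by their calls on these same arrays, so this separation adds no support.

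In complex IV both usual and tissue forms were among the 5 genes that rose: Cox6a1, Cox8a and Cox6b1 of the usual forms, and Cox6b2 and Cox8b of the tissue forms. Cox8b had the largest rise of the family (1.19 ± 0.37, adjusted p = 0.044). Cox6a1 read 13.33, 13.23 and 13.20 in OIR and 13.57, 13.73 and 13.68 after P5 saline (0.41 ± 0.08, adjusted p = 0.0025), while its heart and muscle form Cox6a2 read 0.03 ± 0.17. Cox8a rose by 0.42 ± 0.09 (adjusted p = 0.007) and Cox6b1 by 0.27 ± 0.08 (adjusted p = 0.042). The testis form Cox6b2 rose by 0.33 ± 0.10 (adjusted p = 0.044). Cox7a2 read 0.24 ± 0.08 (adjusted p = 0.076) and its heart and muscle form Cox7a1 0.05 ± 0.17 (adjusted p = 0.9). Ndufa4, counted here with complex IV, read 0.17 ± 0.07 (adjusted p = 0.12). Cox4i1 did not pass (0.11 ± 0.08) and Cox4i2 fell by 0.65 ± 0.12 (adjusted p = 0.0021), to 9.22, 9.46 and 9.47.

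The other falls were of Uqcrb, a complex III subunit that binds ubiquinone (-0.36 ± 0.10, adjusted p = 0.028), and Sdha (-0.23 ± 0.07, adjusted p = 0.049). A second probe set of Uqcrb read 0.18. The other complex II subunits read 0.22 (Sdhb), 0.11 (Sdhc) and -0.05 (Sdhd), the carriers Cyc1 and Cycs 0.08 and 0.03, and Ndufs1, Uqcrc1, Cox5a and Atp5b 0.07, 0.04, 0.14 and -0.22. None of these passed. Of the 11 called genes with other probe sets, 11 of 12 such sets had the sign of the one kept and 3 passed. Sdha and Cox4i2 were called lower in both saline groups than in OIR. Sdha lost its call in 10 of 17 alternative settings after P12 saline and in 11 of 17 after P5 saline, and its second probe set read -0.03 and -0.02. Atp5k, a membrane subunit of ATP synthase, was -0.23 after P12 saline and 0.29 after P5 saline, and Ndufs7 was -0.40 and 0.41. Both comparisons use the same OIR arrays.

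Other genes moved with this comparison. All 5 lens markers were called higher after P5 saline, by 4.35 (Mip) to 7.68 (Crygs), as were 3 of 3 pigment epithelium markers, by 2.41 (Lrat) to 2.85 (Rgr). Of the 25 hypoxia and glycolysis genes 16 were called lower and 0 higher, with a median of -0.64, and 2 of 3 pericyte markers and 2 of 3 endothelial markers were called lower, the latter Cdh5 (-1.27 ± 0.19, adjusted p = 0.00046) and Pecam1 (-0.85 ± 0.17, adjusted p = 0.0033). The part of these cells in the differences of the family was not tested. Of 17 citric acid cycle genes 1 was higher (Dlst, 0.33) and 1 lower (Dld, -0.43). Of the assembly factors outside the family 1 was higher (Higd2a, 0.43) and 1 lower (Higd1a, -0.73), of the biogenesis genes 2 were higher and 1 lower, and of the import genes 1 was lower (Tomm22, -0.33). With the lens mean as a covariate 1 gene of the family was called, beside 66 higher and 82 lower of all genes, and in a fit of the 2 groups alone 0 were called, where 36 of all genes were higher and 82 lower. Leaving out replicate 1 or 2 of P5 saline gave 10 or 11 calls, and leaving out replicate 1, 2 or 3 of OIR gave 10, 9 or 9. In these fits 201 to 421 of all genes were called higher and 277 to 528 lower. The family median stayed between 0.11 and 0.19. After centring, 25 genes of the family were higher and 1 lower, given without the calls over all genes.

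**Figure D3:**
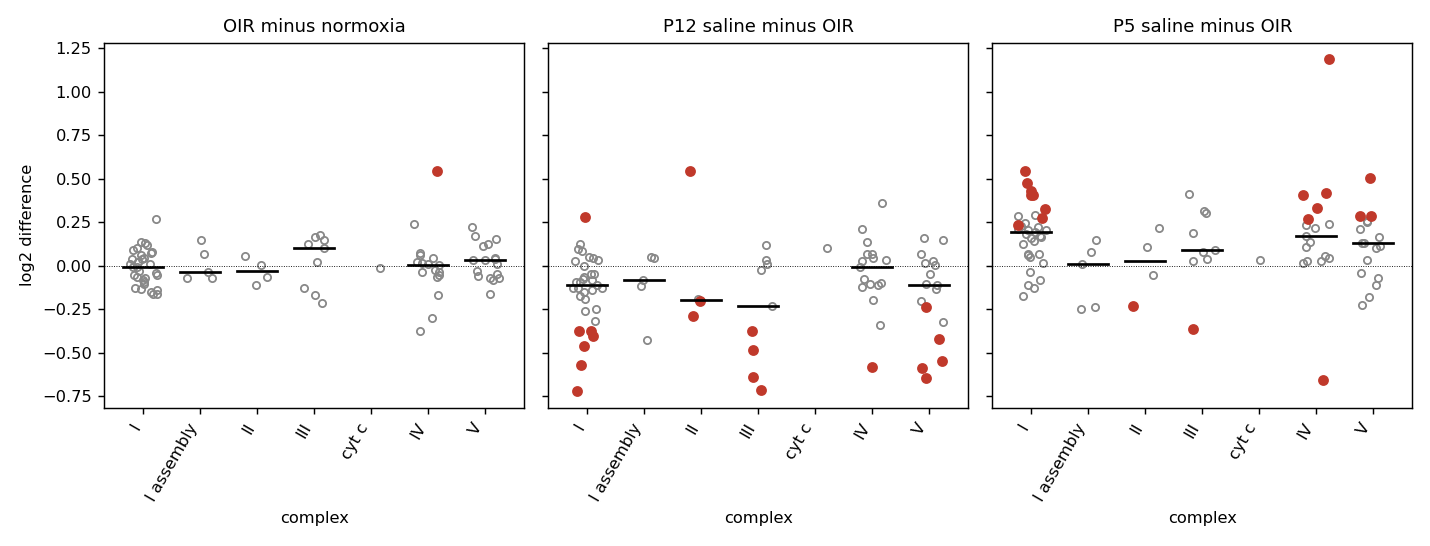
Log2 difference of each gene of the family (points) by complex in 3 comparisons, with filled red points for an adjusted p under 0.05 and bars for the median of a complex. Cox4i2 alone is filled in OIR minus normoxia, most filled points are negative in P12 saline minus OIR, and most are positive in P5 saline minus OIR.

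Some genes separated all arrays of an injection day, with or without cells, from the rest. In 8 of the 86 genes (9.3%) the 12 arrays of P12 injection all lay below the other 18, beside 4.84% of all genes: Ndufs8, Ndufv1, Ndufb9, Sdhd, Uqcr10, Uqcrq, Atp5d and Atp5l. For Ndufb9 a second probe set read 0.11 in P12 saline against OIR, and the mean of its probe sets gave -0.07 (adjusted p = 0.57). Ndufs8 was 10.60 to 11.27 in the 12 arrays, with a median of 10.99, and 11.52 to 11.95 in the 18, with a median of 11.74. Sdhc alone lay above all others (1.16%, beside 1.02%), at 10.68 to 10.98 against 10.10 to 10.58. Against the 6 untreated arrays alone, 9 genes lay below (10.5%, beside 9.96%) and 1 above (1.16%, beside 3.08%).

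The day 5 injections separated from the untreated retinas in the other direction. In 15 genes (17.4%) the 12 arrays of P5 injection all lay above the 6 of normoxia and OIR, beside 0.621% of all genes. Here too the set of all genes was not matched to the family for brightness. In 1 gene (1.16%), Atp5a1, which codes for the alpha subunit of the ATP synthase head, they all lay below, beside 0.92% of all genes. In 8 genes (9.3%, beside 0.315%) they lay above all 18 other arrays: Ndufa3, Ndufb2, Ndufb7, Uqcr11, Cox6a1, Cox7a2, Atp5k and Atp5o. Cox6a1 was 13.49 to 13.73 in the 12 arrays, with a median of 13.59, and 13.10 to 13.41 in the other 18, with a median of 13.24. Uqcr11 was 10.67 to 11.20, with a median of 10.98, against 9.80 to 10.64, with a median of 10.34. After quantile normalization and after centring, chosen after seeing the data, 13 and 17 genes lay above the untreated arrays, beside 0.678 and 0.702% of all genes.

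The level of the lens markers varied among these 12 arrays. Replicate 1 of P5 CD34+ cells had a lens mean of 6.59, inside the 5.54 to 8.37 of the 18 arrays without P5 injection. As the choice of the 15 genes requires, it lay above the untreated arrays in each of them, so this says nothing of the part of lens cells, which was not tested. It read 13.62 for Cox6a1, 12.19 for Ndufb8 and 10.88 for Ndufb2. Its pigment epithelium mean was 10.64, the highest of the 30 arrays, and the part of pigment epithelium in these levels was not tested. Whether the 12 retinas were also younger than the rest cannot be told apart from the day of injection.

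**Figure D4:**
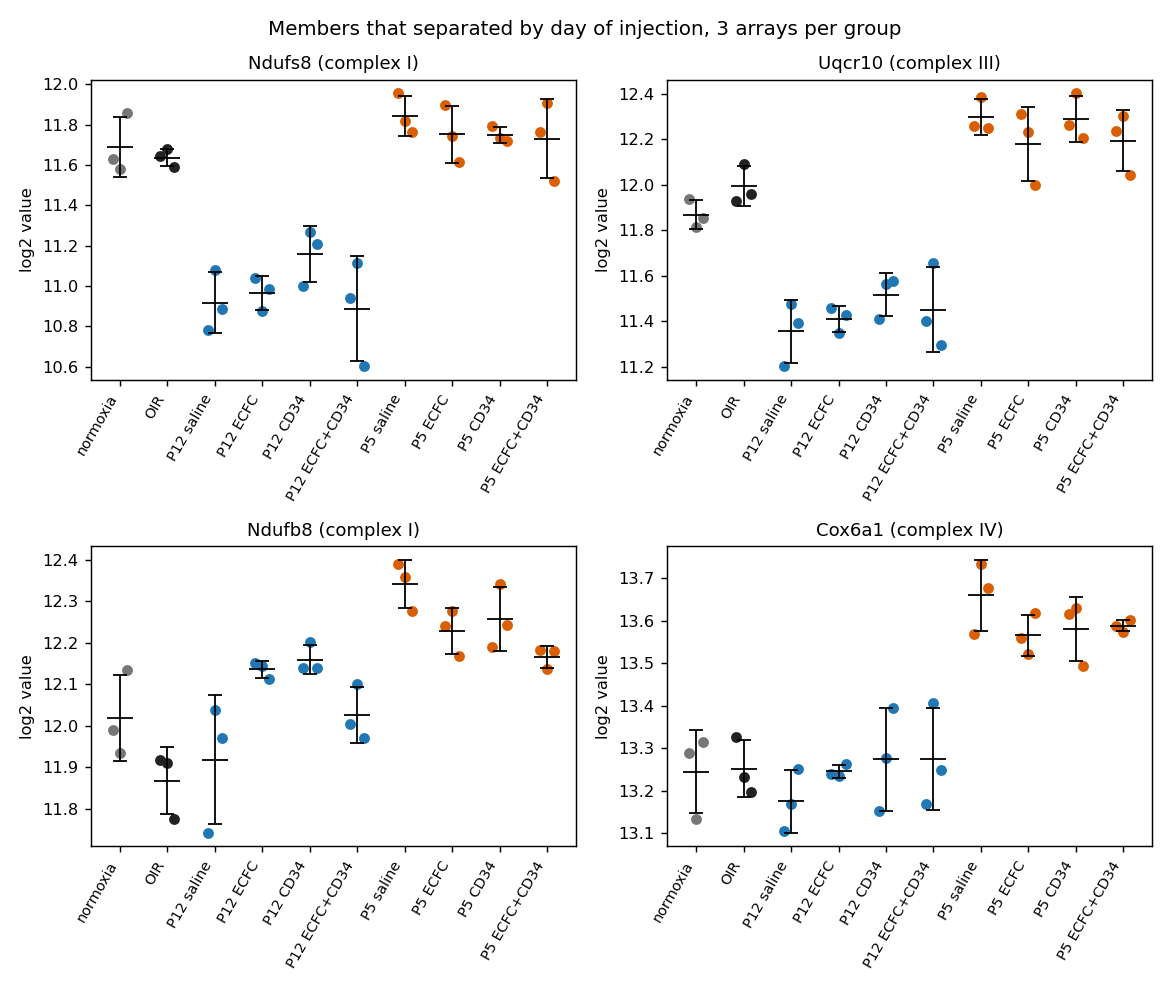
Log2 value of 4 genes in every array (points), with group mean and SD (bars, 3 arrays per group). Ndufs8 and Uqcr10 are low in all 12 arrays of P12 injection, Ndufb8 is above the 6 untreated arrays in all 12 of P5 injection, and Cox6a1 is above all 18 others in those 12.

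**Figure D5:**
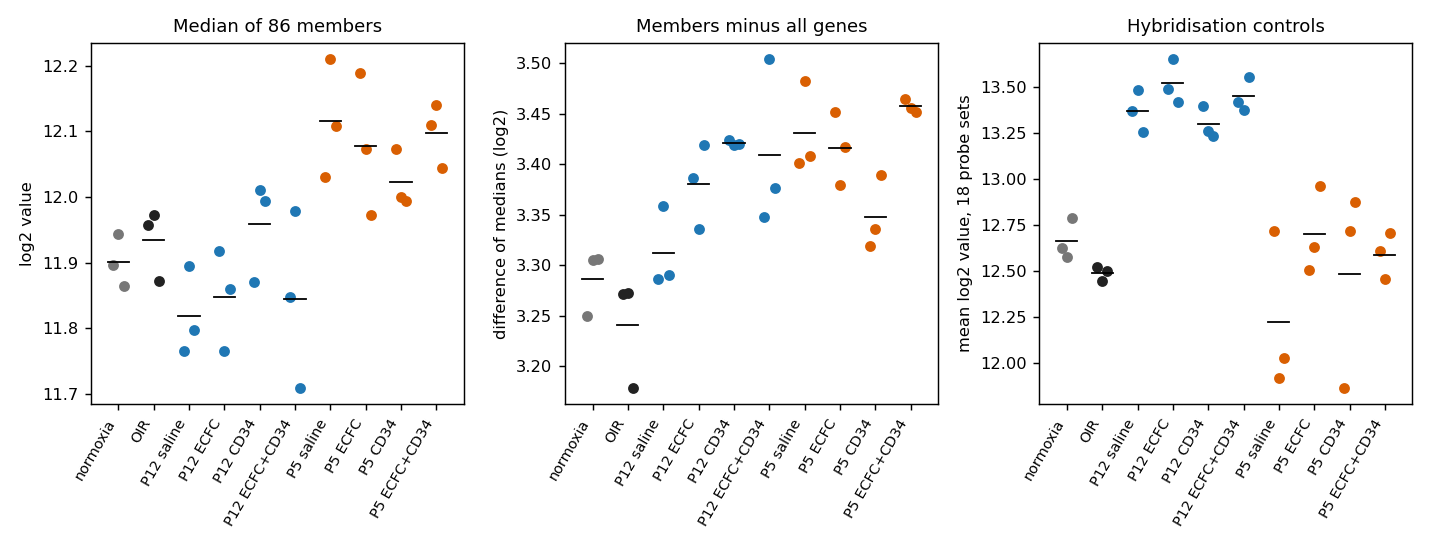
For every array (points, with bars for the group mean): the median log2 value of the 86 genes, that median minus the median of all genes, and the mean of 18 hybridisation control probe sets. The family median was 11.97 to 12.21 in P5 arrays, 11.86 to 11.97 in untreated arrays and 11.71 to 12.01 in P12 arrays, and the controls were 13.23 to 13.65 in the P12 arrays.

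Against saline of the same day, injected cells left this family without calls in 5 of 6 comparisons. At P12 limma called 0 genes of the family for ECFC, CD34+ cells and the combination, where 0.0161, 0 and 0% of all genes were called. At P5 it called 0 for ECFC and for the combination, where 0 and 0% of all genes were called. At an unadjusted p under 0.05 there were 6, 11 and 1 genes of the family at P12 and 3 and 4 at P5. With array weights the counts of calls at P12 were 11, 13 and 0. Both sets of counts are given without the share of all genes and are not read as a result. Comparisons of one day share the saline arrays.

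The smallest p after P12 ECFC was that of Ndufb8, which read 12.15, 12.14 and 12.11 against 11.74, 12.04 and 11.97 after saline (0.22 ± 0.08, adjusted p = 0.22). These arrays did not overlap, and the difference did not pass. It was followed by the assembly factor gene Ndufaf1 (-0.53 ± 0.20, adjusted p = 0.23) and Ndufv2 (-0.17 ± 0.08, adjusted p = 0.29). After P12 CD34+ cells 72 of the 86 differences were positive, with a median of 0.09 against 0.05 for all genes. The share of positive differences among all genes is not given, so this count of signs is not read as a result. The smallest p there belonged to Atp5l (0.40 ± 0.10, adjusted p = 0.85), Ndufb8 (0.24 ± 0.08) and Cox6b2 (0.32 ± 0.10). For the P12 combination they were Cox8c, a testis form (0.52 ± 0.24, adjusted p = 0.5), Cox6a2 (0.33 ± 0.17) and Cox7c (-0.24 ± 0.14).

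After P5 ECFC the smallest p belonged to Cox8a (-0.23 ± 0.09, adjusted p = 0.68), Ndufb5 (0.19 ± 0.08) and Sdha (0.15 ± 0.07). For the P5 combination they were Cox6b2 (-0.26 ± 0.10, adjusted p = 0.52), Sdhb (-0.22 ± 0.09) and Ndufb8 (-0.18 ± 0.08). None passed. The largest difference of either sign in these 2 comparisons was the -0.26 of Cox6b2.

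P5 CD34+ cells gave the single call, Cox8b, the heart and muscle form of a small complex IV subunit. Cox8b read 7.72, 9.10 and 8.28 after P5 saline and 11.41, 9.71 and 10.65 after P5 CD34+ cells. All 3 arrays with CD34+ cells lay above the 3 of saline, a rise of 2.22 ± 0.37 (4.67-fold, adjusted p = 0.002). This was 1.16% of the family, beside 8.46% of all genes called, 3.07% higher and 5.4% lower. Cox8b held in 16 of 17 alternative settings, from 1.82 to 2.66, and was lost in a fit of the 2 groups alone (adjusted p = 0.29).

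The means of the other P5 groups lay between those of P5 CD34+ cells and of the untreated groups, but their arrays reached into the normoxia range. Cox8b was 7.58, 8.11 and 8.93 after P5 ECFC and 8.33, 8.78 and 7.58 after the P5 combination, which overlap P5 saline. It was 6.95 to 7.62 in the 12 P12 arrays, 6.92 to 7.40 in OIR and 7.38 to 7.81 in normoxia. P5 saline was above OIR by 1.19 ± 0.37 (adjusted p = 0.044), a call lost when any of 5 of the 6 arrays was left out. The effect of CD34+ cells at P5 exceeded that at P12 by 2.11 ± 0.52 (adjusted p = 0.04), where 1.9% of all genes were called in this interaction, 0.403% higher and 1.49% lower. The interaction for ECFC called 0 genes of the family (6 at an unadjusted p under 0.05), beside 0.0323% of all genes, 0.00807% higher and 0.0242% lower. The Cox8b interaction was lost in 10 of the 12 fits that left out 1 array and when only the groups compared were used (adjusted p = 0.16).

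Other tissue forms did not pass against saline. Cox6a2 read 7.65, 7.59 and 7.68 after P5 CD34+ cells and 7.78, 7.07 and 7.22 after saline (0.28 ± 0.17, adjusted p = 0.34), and Cox7a1 read 7.23, 7.43 and 6.74 against 6.75, 7.23 and 7.13 (0.10 ± 0.17, adjusted p = 0.81). The usual form Cox8a read -0.14 ± 0.09 (adjusted p = 0.41). The 4 muscle markers averaged 5.30, 6.61 and 5.86 in the 3 arrays with CD34+ cells, in the replicate order used for Cox8b. Of these 4 markers 0 were called against saline, and the part of muscle was not tested.

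Markers of other cells moved in the same arrays. In replicates 1, 2 and 3 of P5 CD34+ cells the microglia markers averaged 10.26, 8.22 and 9.04, and 2 of 3 were called higher than after saline. The 2 measured ganglion cell markers averaged 9.15, 11.26 and 10.01, and both were called lower. Gpnmb, a glycoprotein of phagocytes and pigment cells chosen after its values were seen, read 12.63, 10.52 and 10.28 and rose by 2.91 (adjusted p = 0.0028). The lens mean was 6.59, 13.82 and 13.70. The pigment epithelium mean was 10.64, 9.19 and 9.86, and 0 of its 3 markers were called against saline. Within each of the 4 P5 groups the order of the arrays by this mean was their order by Cox8b, an unplanned match among several marker lists. The pigment epithelium mean was 8.35, 10.11 and 9.92 after saline, 6.26, 8.48 and 9.45 after ECFC, and 8.70, 9.24 and 7.16 after the combination. The microglia mean also had the order of Cox8b in P5 CD34+ cells, but not after P5 saline (8.43, 7.96 and 7.84). Each group has 3 arrays, and the part of any of these cells in the Cox8b level was not tested.

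For the rest of the family no difference passed with CD34+ cells at P5, although with array weights 10 genes were called there and 25 in the CD34 interaction. The calls over all genes with array weights are not given beside these counts. The next smallest p were those of Uqcrb (0.27 ± 0.10, adjusted p = 0.11), Ndufv1, the flavoprotein that takes electrons from NADH (-0.23 ± 0.10, adjusted p = 0.18), and Sdhd (0.15 ± 0.07, adjusted p = 0.19). The median difference was -0.025 over the family and -0.028 over all genes. Of 8 core subunits of complexes I and III, all differences were negative, between -0.23 and -0.06, and none passed. This subgroup is reported for this comparison alone. The share of negative differences among all genes is not given, so these signs are not read as a result. Counting without adjustment, 6 of the 86 had p under 0.05, again without the share of all genes. Without replicate 1 of P5 CD34+ cells 2 genes of the family were called, beside 304 higher and 378 lower of all genes.

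The 13 subunits encoded by mitochondrial DNA had no match by symbol on this platform. A probe set annotated ND5, a complex I subunit of mitochondrial origin that was added after seeing the data, read 13.08 to 13.74 over the 30 arrays. It passed in none of the comparisons, with -0.22 and an adjusted p of 0.34 between OIR and normoxia.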

How the data were processed

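RNA of 30 retinas was measured on expression arrays. Per the labels' protocols, a QiaCube with the RNeasy Mini Kit gave the RNA, of which 100 ng went into the Ovation PicoSL WTA V2 amplification. The deposited values are log2 intensities per probe set, and Partek is named in the submitters' processing notes. No source used here gives the background correction, summarisation or normalization, and the values were not normalized again. Arrays give no counts, so their number (3 per group) limits the precision.

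Of 22690 probe sets 20380 carried 1 gene symbol, 691 carried several, 1555 carried none and 64 were controls. For each of 12393 genes the probe set with the highest mean was kept. One limma 3.58.1 model (R 4.3.3) with 10 group means and 20 residual degrees of freedom gave all differences, and its script was tested on simulated data. The members and lists were chosen with earlier results of these data known. Named genes were, per comparison, called members (up to the 8 largest differences each way) or else the 3 smallest p, the isoform pairs, complex II, Cyc1, Cycs and 1 subunit per complex, with up to 3 genes of other lists. Ndufa4l2 was not among the genes measured. Labels number the replicates in each group. Deviations of same-numbered arrays correlated between -0.45 and 0.45, and in 0 of 9 comparisons did all pairs exceed 0.1, so no pairing was used. No arrays were identical (0 pairs). Each retina came from its own pup, so p-values measure the spread between pups.

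The alternatives were median centring, quantile normalization, the use of all probe sets, leaving out the dimmest 30% of genes, limma's trend and robust options, array weights, a replicate block, the mean of a gene's probe sets, the hybridisation control mean (18 probe sets) or lens marker mean as covariate, only the groups compared, and leaving out each array. Counts of separated arrays under other scalings, ND5 and Gpnmb were added after seeing the data. The order of arrays by the pigment epithelium and microglia means beside Cox8b was not planned either.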

Additional observations from a re-analysis of the deposited data

Results flagged for a closer look

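The effect of CD34+ cells on Cox8b differed between injection days by the test of the interaction: it was larger at P5 than at P12 by 2.11 ± 0.52 log2 units (limma adjusted p = 0.04). The call was lost in 10 of the 12 fits that left out 1 array and in a limma fit of only the groups compared (adjusted p = 0.16). Retinas of the 2 injection days may also differ in age. Groups of 3 arrays are too small for the check of single outlying arrays, so none was made.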

How the results depend on the processing

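The call of Cox4i2 between OIR and normoxia and the falls of Atp5d, Ndufa7, Ndufs8 and Uqcr10 after P12 saline held in all 17 alternatives run for each. For the family, array weights gave 34 calls in P12 saline against OIR, 33 in P5 saline against OIR, 11 for P12 ECFC, 13 for P12 CD34+ cells, 10 for P5 CD34+ cells, and 4 and 25 for the ECFC and CD34 interactions, with a CD34 interaction median of -0.21. The hybridisation covariate gave 10 calls and a median of 0.0054 in P12 saline against OIR, 1 for P5 ECFC, and 3, 4 and 1 for the ECFC, CD34 and combination interactions. The lens covariate gave 1 call in P5 saline against OIR and 2 for P5 CD34+ cells. Fits of only the groups compared gave 0 calls in P5 saline against OIR, 0 for P5 CD34+ cells and 0 for the CD34 interaction. Trend and robust options gave 29 in P5 saline against OIR. Median centring gave 2 calls (1 higher, 1 lower) and a median of -0.0713 in OIR against normoxia, medians of 0.0141 in P12 saline against OIR and 0.0873 for the P12 combination, and 2 genes above all other arrays at P12. Quantile normalization gave 2 for the CD34 interaction. These counts of calls are given without the calls over all genes under the same setting. Whether the family or the whole array was called more often cannot be read from them. The cause of these moves was not tested. Ndufv2 after P12 saline turned to -0.12 with the mean of its probe sets, 2 of which are negative.

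Leaving out each array gave 16 to 19 calls in P12 saline against OIR, 9 to 16 in P5 saline against OIR, 1 to 2 for P5 CD34+ cells and 0 to 1 for the CD34 interaction. With the replicate block there were 57 genes called by the F test, 19 in P12 saline against OIR, 19 in P5 saline against OIR, 1 in OIR against normoxia, 1 for P5 CD34+ cells and 1 for the CD34 interaction, all within 1.5 times of the fit without it.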
